A study of Mus musculus with 59 samples.

Results

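The genes described here are 33 genes of cholesterol synthesis and sterol control, picked from the 41227 genes of one expression table by symbol and known function, with no measured value in the rule. They comprise 18 enzymes of cholesterol synthesis, 5 genes that sense sterols or control the SREBP transcription factors, 4 genes of uptake and movement inside the cell, and 6 genes of export, turnover, esterification and the sterol receptor. Messenger RNA was measured by RNA sequencing of the pons, a part of the brainstem, from mouse models of spinocerebellar ataxia type 3 (SCA3), in which an expanded polyglutamine (Q) repeat in ataxin-3 causes disease. All animals were C57BL/6, each library came from 1 mouse, and the labels give no age. The libraries fell into 2 sets, which were never compared with each other. The first set held 3 libraries homozygous for a knocked-in duplicated Q82 repeat in mouse Atxn3 (dupKi-hom), 3 Atxn3 knockout libraries (ATXN3-KO) and 3 wild-type libraries. The second set held 6 libraries heterozygous for the duplicated Q82 repeat (dupKi-het), 4 homozygous for a single Q82 repeat (Ki-hom) and 4 heterozygous for it (Ki-het). It also held 4 libraries transgenic for human ATXN3 with Q84 (YAC84Q-hemi), 4 with human ATXN3 with Q15 (YAC15Q-hemi) and 6 wild-type libraries. The Y-linked gene Ddx3y and the X-inactivation transcript Xist marked the first set as male and the second as female. The other 22 samples in the labels were not analysed here; they are further dupKi-hom and wild-type samples, samples of the deep cerebellar nucleus from these genotypes, and samples whose genotype the labels do not give.

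Cholesterol does not cross from blood into brain, so the tissue makes its own, mostly in oligodendrocytes, which build it into myelin, and in astrocytes, which export it to neurons on apolipoprotein E. Enzymes of the mevalonate and squalene steps make lanosterol, and the enzymes after it convert lanosterol to cholesterol. When membranes run low in sterol, Scap carries the transcription factors Srebf1 and Srebf2 (SREBPs) out of the endoplasmic reticulum for cleavage, and the cleaved factors switch on the enzymes, whereas Insig1 and Insig2 hold the complex back when sterol is plentiful. SREBPs bind together with the factor NF-Y, which recognises a CCAAT box, and the genes of this route are known for being regulated together.

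The CCAAT box was looked for, as CCAAT or its reverse complement ATTGG, in the 250 bases before each gene's start, read from RefSeq on mouse build GRCm38.p6. Of the 33 genes, 27 matched a RefSeq promoter. Fdps, Fdft1, Sqle, Stard4, Npc1 and Abcg1 did not. The box was found in 14 of 15 matched synthesis enzymes (93.3%), the exception being Acat2, and in 8 of 12 other members (66.7%), against 10133 of 27025 genes of the RefSeq table (37.5%). The SREBP-element spelling TCACNCCAC was found in 1 of the 15 enzymes, Hmgcs1, in 0 of the 12 other members and in 331 genes of the table (1.22%). A match of letters is a description and does not show that a factor binds. The 4 promoters below, given 5′ to 3′ on the gene's strand with the box in capitals, belong to genes that passed the test in a comparison described later and hold the box. Scap, which also passed, had 0 boxes. The windows are chr5:28071162-28071411, plus strand, for Insig1 (1 box), chr8:122443423-122443672, minus strand, for Mvd (2 boxes), chr10:76531355-76531604, plus strand, for Lss (1 box), and chr13:8885356-8885605, plus strand, for Idi1 (2 boxes).
Insig1: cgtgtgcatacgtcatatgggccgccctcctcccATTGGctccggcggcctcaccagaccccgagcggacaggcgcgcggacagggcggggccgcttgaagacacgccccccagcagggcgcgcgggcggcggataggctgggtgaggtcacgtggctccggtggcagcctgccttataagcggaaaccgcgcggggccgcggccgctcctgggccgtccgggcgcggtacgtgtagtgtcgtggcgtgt
Mvd: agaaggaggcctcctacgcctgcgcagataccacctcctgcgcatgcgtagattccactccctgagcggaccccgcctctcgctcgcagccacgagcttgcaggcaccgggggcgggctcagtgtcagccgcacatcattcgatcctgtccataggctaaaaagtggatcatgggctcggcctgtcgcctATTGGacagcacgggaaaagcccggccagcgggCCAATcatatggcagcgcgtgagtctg
Lss: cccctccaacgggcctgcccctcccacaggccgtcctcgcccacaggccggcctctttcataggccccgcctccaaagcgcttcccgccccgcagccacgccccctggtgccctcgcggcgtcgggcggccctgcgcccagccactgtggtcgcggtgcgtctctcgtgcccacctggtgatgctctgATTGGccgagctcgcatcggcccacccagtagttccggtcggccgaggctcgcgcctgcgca
Idi1: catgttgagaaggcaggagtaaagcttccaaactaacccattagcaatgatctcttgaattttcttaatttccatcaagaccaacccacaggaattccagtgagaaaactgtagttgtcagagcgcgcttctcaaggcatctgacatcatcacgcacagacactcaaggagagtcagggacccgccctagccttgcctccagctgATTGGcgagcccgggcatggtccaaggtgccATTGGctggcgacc
The middle base of the nearest box lay 12 bases before the RefSeq start in Idi1, 25 bases before it in Mvd, 60 bases in Lss and 214 bases in Insig1. Genes can have other starts. In GENCODE release M21, 1 transcript of Idi1 begins 105 bases before the RefSeq start, upstream of both boxes, and 1 of Insig1 and 1 of Lss begin 49 and 17 bases before it, downstream of the box.

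Values are FPKM, fragments per kilobase of transcript with library size divided out, as the authors deposited them; they are scaled for length, so levels of different genes can be set side by side. FPKM summed to between 488351 and 695249 in the libraries of the first set and to between 430083 and 560516 in those of the second, and the read totals are unknown. Atxn3 stood at 0.186 to 0.335 FPKM in ATXN3-KO libraries, against 6.23 to 7.49 FPKM in wild-type libraries of that set, and at 10.6 to 14.1 FPKM in dupKi-hom libraries. In the second set it stood at 10.4 to 13.4 FPKM in dupKi-het, 5.44 to 5.61 in Ki-hom, 5.47 to 6.92 in Ki-het, 5.71 to 8.58 in YAC84Q-hemi and 8.29 to 9.92 in YAC15Q-hemi libraries, against 6.20 to 8.15 FPKM in wild-type libraries. The 6 libraries of the second set that are numbered 1, 1 of each genotype, stood apart from the others. Among genes under 0.05 FPKM, the FPKM ratio of any 2 libraries not numbered 1 took its commonest value in 24.2% to 56.1% of genes, but in 1.8% to 5.99% where 1 of the 2 was numbered 1. Where both were numbered 1 it did so in 7.19% to 51.7%, and in pairs of the first set in 8.57% to 36.7%. Among these low genes, then, no single ratio of the libraries numbered 1 to the others stood out. Of the 32 members tested in the second set, 13 were lower and 5 higher in the libraries numbered 1 at a limma adjusted p under 0.05, as were 55.5% of all genes in either direction. Apoe, Pmvk, Mvk, Fdps, Insig2, Nr1h2 and Acat2 had their lowest value in the library numbered 1 in 6 of 6 genotypes, and Hsd17b7 and Sc5d their highest. Results that rest on these libraries are given with and without them.

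The filter on low values, at least 1 FPKM in 3 or more libraries, passed all 33 members of the first set and 32 of the second. Hmgcs1, which makes the substrate of the rate-limiting step, was listed at 0 in all 28 libraries of the second set although it stood at 128.5 to 178.7 FPKM in every library of the first, so it was left out there. Apoe, which carries cholesterol between brain cells, was the most abundant member, at 1374 ± 54.2 FPKM in wild-type libraries of the first set (SD, n = 3) and 2627 ± 427 FPKM in those of the second (SD, n = 6). In the second set Insig1 followed at 86.6 ± 11.1 FPKM, then the methyl oxidase Msmo1 at 68.3 ± 2.64 and the farnesyl diphosphate synthase Fdps at 57.4 ± 6.65 FPKM. From Insig1 down to Soat1, the libraries of each gene overlapped those of the next gene in the order of the means, whereas Apoe above them and Abca1 and Mylip below them overlapped no neighbour. The lowest were the esterifying enzyme Soat1 at 9.79 ± 1.44, the cholesterol exporter Abca1 at 5.64 ± 0.583 and the ubiquitin ligase Mylip at 4.28 ± 0.184 FPKM. Between wild-type libraries of the second set the coefficient of variation ranged from 3.07% for Fdft1 to 19.8% for Hsd17b7.

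Each genotype was tested against the wild-type libraries of its own set, and 4 pairs of models were tested against each other, on log2(FPKM + 1) with limma fitted over all genes of a set and adjusted p-values taken over all of them (14059 genes in the first, 14802 in the second set). Fold changes are on that log2 scale, on which the change of low genes is understated. The comparisons of a set share their wild-type libraries and 1 estimate of the spread. In this main fit, members passed an adjusted p of 0.05 against wild-type in Ki-hom pons only, where Sqle, Insig1 and Mvd fell: 3 of 32 members, beside 0.459% of all genes lower at that threshold, and 0 members rose, beside 0.142% of all genes higher. No member passed in Ki-het (0.101% of all genes lower and 0.0135% higher), dupKi-het (1.37% and 1.16%), YAC84Q-hemi (0.162% and 0.365%), YAC15Q-hemi (0.00676% and 0%), dupKi-hom (1.15% and 0.484%) or ATXN3-KO pons (0.0142% and 0%). At an unadjusted p under 0.05, limma gave 13 members lower and 0 higher in Ki-hom, beside 9.22% and 3.82% of all genes, and 11 lower and 0 higher in Ki-het, beside 7.92% and 2.72%. The same counts were 6 lower and 3 higher in dupKi-het (5.05% and 7.64% of all genes), 4 and 4 in YAC84Q-hemi (2.70% and 4.55%), and 1 and 1 in YAC15Q-hemi (2.49% and 2.00%). In the first set they were 7 lower and 2 higher of 33 in dupKi-hom (5.29% and 6.97%) and 1 lower and 0 higher in ATXN3-KO (3.17% and 3.29%). Between models, Stard4, Scap, Lss and Idi1 were higher in dupKi-het than in Ki-het pons, 4 of 32 members beside 7.84% of all genes higher, and 0 members were lower, beside 2.81% of all genes. No member passed in dupKi-hom against ATXN3-KO (0.690% of all genes lower and 0.555% higher), in YAC84Q-hemi against YAC15Q-hemi (0.0540% and 0.209%) or in Ki-hom against Ki-het, where 0% of all genes passed. At an unadjusted p under 0.05, these 3 comparisons gave 5 members lower and 4 higher (4.61% and 7.36% of all genes), 8 lower and 4 higher (2.30% and 3.70%), and 0 lower and 0 higher (0.899% and 1.35%). The test that passed in Ki-hom and not in Ki-het does not show that they differ: the difference between them was tested directly, and its intervals are given with the genes. The main fit took no account of which libraries were numbered 1. With these as a covariate, 7 members were lower than wild-type in Ki-hom, 3 in Ki-het and 1, Apoe, in dupKi-het. Npc1 and Abcg1 were then higher in YAC84Q-hemi. Calls over all 14802 genes rose as well, to 383, 130, 813 and 207 in these 4 genotypes.

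**Figure D1:**
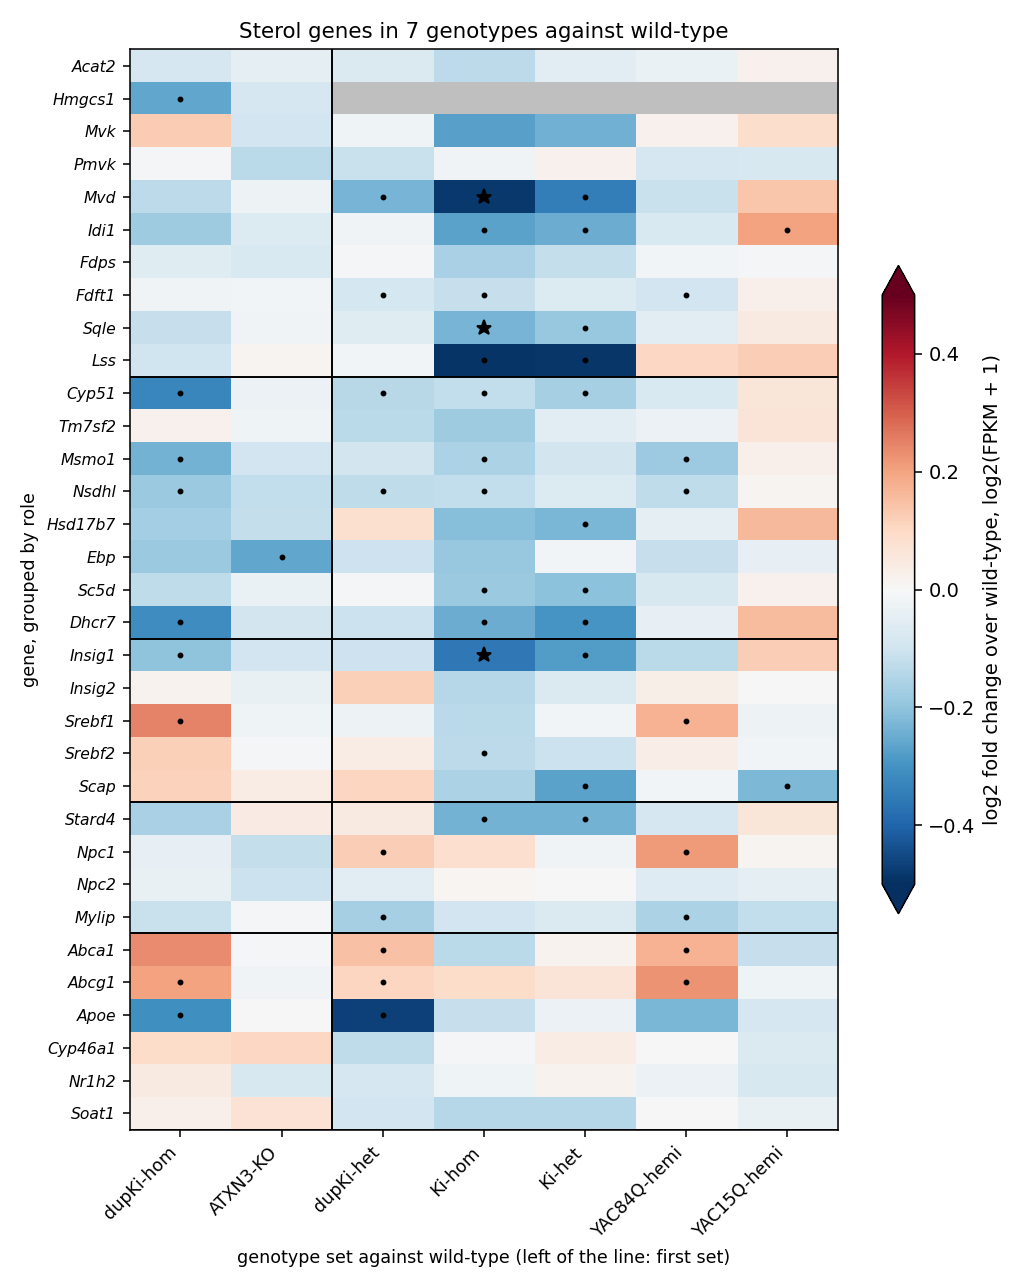
Log2 fold change of each of the 33 members (rows, grouped by role) in each of the 7 genotypes against the wild-type libraries of its set (columns), on log2(FPKM + 1). A star marks a limma adjusted p under 0.05, a dot an unadjusted p under 0.05 and grey a gene that was not tested; the stars are Sqle, Insig1 and Mvd in Ki-hom.

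The synthesis enzymes lay below wild-type in both single-repeat knock-ins. In Ki-hom pons 17 of 17 tested enzymes had a fold change below 0, against 58.2% of all genes, and their median was -0.18, against -0.02 over all genes. In Ki-het pons 16 of 17 were below 0, against 57.1% of all genes, with a median of -0.17, against -0.02. The median was smaller in the other disease models: -0.09 in dupKi-het, with 16 of 17 enzymes below 0 against 47.4% of all genes, and -0.08 in YAC84Q-hemi, with 15 of 17 below 0 against 50.8%. In YAC15Q-hemi, whose transgene has the short repeat, 3 of 17 were below 0, against 51.8% of all genes, with a median of 0.04. In the first set 16 of 18 enzymes were below 0 in dupKi-hom, against 42.6% of all genes, and 17 of 18 in ATXN3-KO, against 52.3%, with medians of -0.13 and -0.07. In dupKi-hom against ATXN3-KO 13 of 18 were below 0, against 43.9% of all genes. These counts are descriptions of enzymes that share a regulator and carry no test of their own.

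Groups whose libraries did not overlap were also counted over all members. In Ki-hom 6 members lay below every wild-type library and 0 above, beside 2.34% of all genes lower and 0.757% higher, and in Ki-het 2 lay below and 0 above, beside 1.29% and 0.331%. In dupKi-het 0 lay below and 0 above every wild-type library, beside 1.11% and 0.858% of all genes, as in YAC15Q-hemi, beside 0.378% and 0.351%, and in YAC84Q-hemi 2 lay below and 1 above, beside 0.676% and 1.33%. With 3 libraries a group, dupKi-hom had 8 members below and 5 above wild-type, beside 8.20% and 12.0% of all genes, and ATXN3-KO had 1 and 1, beside 5.17% and 4.84%. Between models, dupKi-hom had 6 members below and 5 above ATXN3-KO (5.78% and 10.7% of all genes), YAC84Q-hemi 5 below and 3 above YAC15Q-hemi (1.43% and 2.48%), dupKi-het 0 below and 2 above Ki-het (2.51% and 5.48%), and Ki-hom 1 below and 0 above Ki-het (0.655% and 0.905%).

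Averaged over the enzymes of a library, the deviation from the wild-type mean was -0.211 ± 0.048 in Ki-hom libraries, which ranged from -0.270 to -0.156, and it had an SD of 0.073 in the 6 wild-type libraries, which ranged from -0.102 to 0.119. The 4 Ki-hom libraries therefore lay below all 6 wild-type libraries. Ki-het libraries averaged -0.167 ± 0.066 and ranged from -0.249 to -0.0877, so that 1 of the 4 lay within the wild-type range. The dupKi-het libraries ranged from -0.135 to -0.0221, the YAC84Q-hemi libraries from -0.185 to -0.00613 and the YAC15Q-hemi libraries from -0.0182 to 0.146, and each of these genotypes overlapped wild-type. In the first set the mean deviation was -0.130 ± 0.096 in dupKi-hom (-0.197 to -0.0208) and -0.0732 ± 0.0290 in ATXN3-KO libraries (-0.103 to -0.0453), against an SD of 0.072 in wild-type libraries (-0.0644 to 0.0783; SD, n = 3 each).

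**Figure D2:**
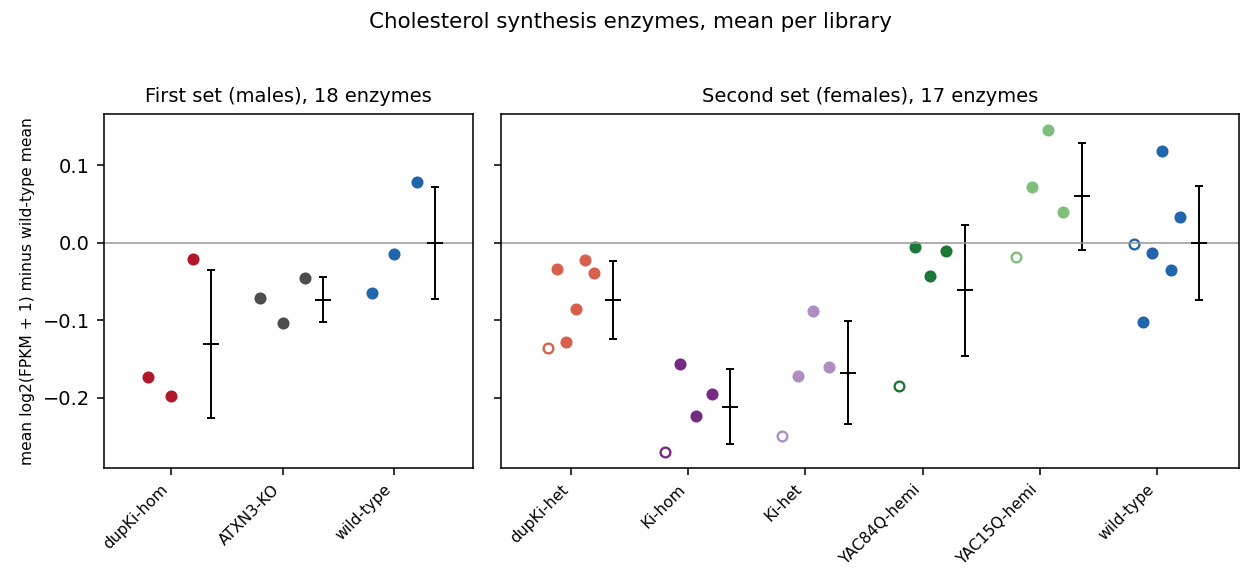
Mean over the synthesis enzymes of log2(FPKM + 1) minus the wild-type mean of the set, 1 point for each library, with the mean and SD of each genotype beside the points. Open circles are the libraries numbered 1; the Ki-hom libraries lie between -0.270 and -0.156, below all 6 wild-type libraries.

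Of the mevalonate and squalene enzymes, Sqle and Mvd passed the test in Ki-hom pons. Sqle, the squalene epoxidase, measured 30.3, 31.8, 31.0 and 31.6 FPKM in Ki-hom libraries, against 36.9, 34.2, 37.5, 38.7, 35.2 and 38.2 FPKM in wild-type. It fell to a mean of 31.2 ± 0.670 FPKM in Ki-hom, against 36.8 ± 1.76 FPKM in wild-type (SD, n = 4 and 6), a log2 change of -0.23 (SE 0.042, limma adjusted p = 0.00969). All 4 Ki-hom libraries lay below every wild-type library. Mvd, the mevalonate diphosphate decarboxylase that makes isopentenyl diphosphate, measured 8.80, 10.1, 9.69 and 10.2 FPKM in Ki-hom libraries, against 12.7, 11.5, 15.1, 16.4, 13.4 and 15.2 FPKM in wild-type libraries. It fell to 9.71 ± 0.652 FPKM in Ki-hom, against 14.1 ± 1.82 FPKM in wild-type, a log2 change of -0.48 (SE 0.110, limma adjusted p = 0.0462), again with no overlap. Lss, which cyclises the epoxide to lanosterol, measured 9.40, 9.91, 11.5 and 11.3 FPKM in Ki-hom libraries, against 11.5 to 18.5 FPKM in wild-type libraries (median 15.0), and did not pass (log2 fold change -0.49, SE 0.131, limma adjusted p = 0.0817). Idi1, the isomerase that follows Mvd, measured 41.6, 41.7, 42.4 and 38.6 FPKM in Ki-hom libraries, against 44.96 to 54.2 FPKM in wild-type libraries (median 49.9), without overlap and without passing (-0.27, SE 0.074, limma adjusted p = 0.0949). Without the libraries numbered 1, an alternative chosen after the data were seen, the limma adjusted p was 0.0418 for Sqle and 0.0368 for Mvd, and with these libraries as a covariate it was 0.00189 and 0.00273. Leaving out Ki-hom library 1 alone gave limma adjusted p-values of 0.0535 for Sqle and 0.161 for Mvd; Mvd also lost its call without any of the other 3 Ki-hom libraries or wild-type libraries 1, 3, 4 or 6 (0.0585 to 0.133), while Sqle kept it. A fit of these 2 genotypes alone gave limma adjusted p-values of 0.155 for Sqle, 0.147 for Mvd and 0.229 for Insig1, a member described below, and a fit without the 7 libraries above 1000 FPKM of the choroid plexus gene Ttr gave 0.101, 0.170 and 0.101.

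The same enzymes were lower in Ki-het libraries than in most wild-type libraries, without passing. Sqle measured 31.2, 31.6, 33.5 and 32.2 FPKM in Ki-het, below every wild-type library, with a log2 fold change of -0.19 (SE 0.042, limma adjusted p = 0.0701). Lss measured 9.17, 9.85, 12.4 and 11.0 FPKM in Ki-het, 3 of 4 below every wild-type library (-0.48, SE 0.131, limma adjusted p = 0.142). With the libraries numbered 1 as a covariate, 3 members passed in Ki-het, Sqle among them at a limma adjusted p of 0.0258, and without those libraries 0 passed and Sqle had 0.278. Between Ki-hom and Ki-het, the log2 fold change of Sqle was -0.04 (95% interval -0.14 to 0.05) and that of Mvd -0.14 (-0.39 to 0.11), each with a limma adjusted p of 1. These intervals leave room for differences in either direction.

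In dupKi-het libraries Sqle measured 32.8 to 36.7 FPKM (median 35.2), and in YAC84Q-hemi libraries 33.1, 36.0, 34.9 and 37.7 FPKM, both overlapping the wild-type range of 34.2 to 38.7 FPKM. Mvd stood at 10.1 to 13.3 FPKM (median 12.0) in dupKi-het libraries and averaged 11.8 ± 1.22 FPKM, against 14.1 ± 1.82 FPKM in wild-type (-0.23, SE 0.098, limma adjusted p = 0.303). In YAC15Q-hemi libraries Idi1 measured 56.2, 62.5, 59.5 and 51.2 FPKM, 3 of 4 above every wild-type library (0.20, SE 0.074, limma adjusted p = 1). Set against these, the YAC84Q-hemi libraries had 49.2, 47.2, 44.8 and 46.7 FPKM of Idi1, below all 4 YAC15Q-hemi libraries, and the difference did not pass (-0.28, SE 0.081, limma adjusted p = 0.216). All 17 enzymes had a lower mean log2 value in YAC84Q-hemi than in YAC15Q-hemi, against 48.6% of all genes, and 4 of the 17 did not overlap, beside 1.43% of all genes. The 17 include genes that hardly differed: Pmvk measured 22.0, 32.3, 34.8 and 35.1 FPKM in YAC84Q-hemi and 23.0, 35.1, 31.2 and 34.5 FPKM in YAC15Q-hemi libraries.

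**Figure D3:**
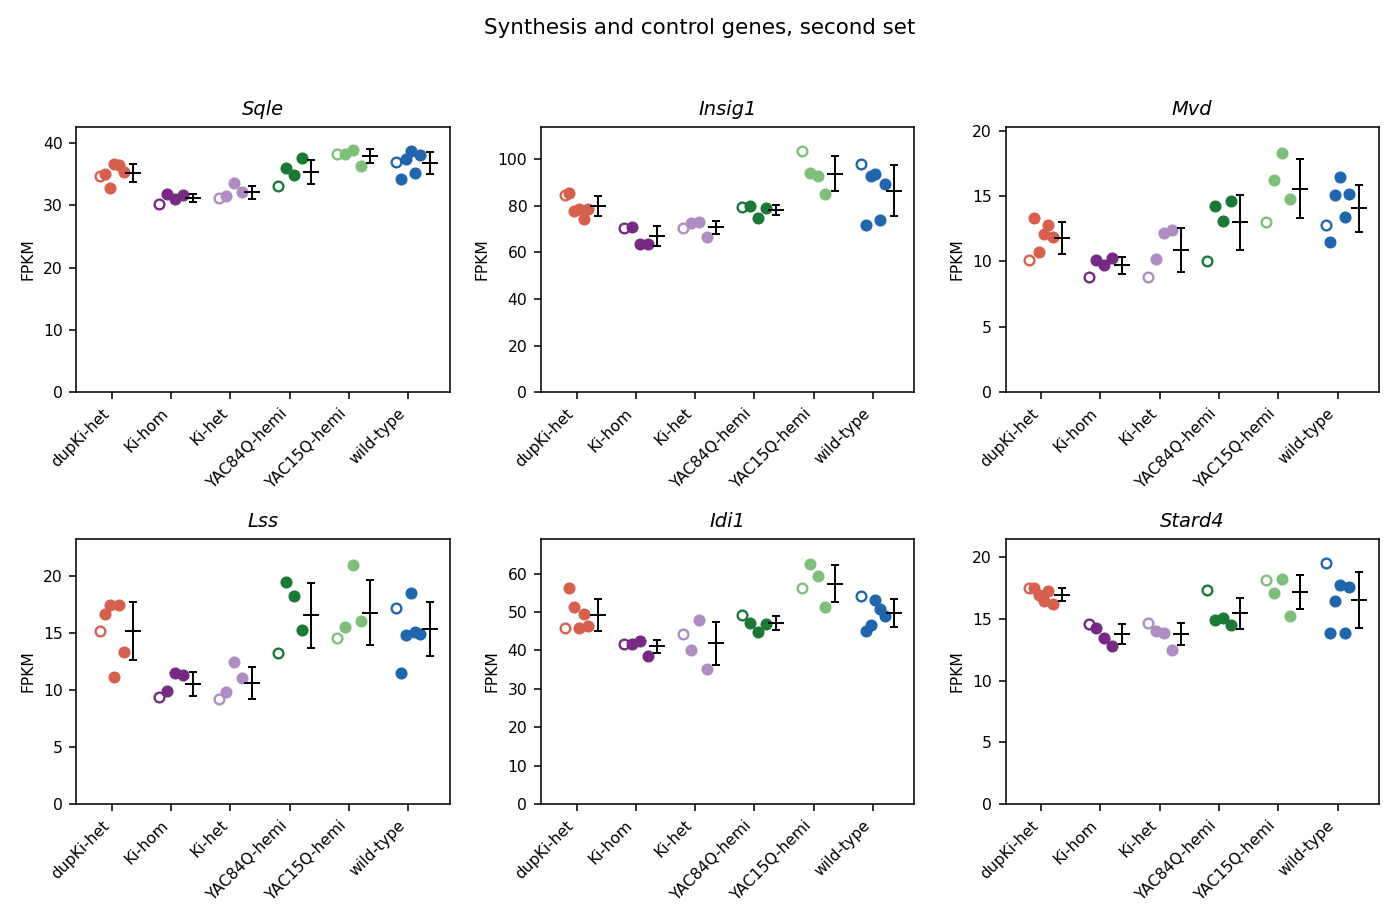
FPKM of Sqle, Insig1, Mvd, Lss, Idi1 and Stard4 in each library of the second set, by genotype, with the mean and SD beside the points; open circles are the libraries numbered 1. Sqle lies between 30.3 and 31.8 FPKM in Ki-hom libraries and between 34.2 and 38.7 FPKM in wild-type libraries.

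Lss and Idi1 were the 2 of 17 enzymes that passed as higher with the duplicated than with the single repeat in heterozygous animals, beside 7.84% of all genes. Lss measured 15.1, 16.7, 17.4, 11.1, 17.4 and 13.3 FPKM in dupKi-het libraries (median 15.9), 5 of 6 above all 4 Ki-het libraries. Its mean was higher in dupKi-het, at 15.2 ± 2.54 FPKM, than in Ki-het, at 10.6 ± 1.43 FPKM (0.47, SE 0.131, limma adjusted p = 0.0224). Idi1 measured 45.8, 56.4, 51.3, 45.8, 49.5 and 46.3 FPKM in dupKi-het libraries, against 44.4, 40.2, 48.0 and 35.0 FPKM in Ki-het libraries, and the groups overlapped (0.23, SE 0.074, limma adjusted p = 0.0462). Scaling each library by its median before the fit changed the split of members in this comparison from 4 higher and 0 lower to 2 higher, Lss and Scap, and 2 lower, Apoe and Cyp46a1. Without the libraries numbered 1, Idi1 had a limma adjusted p of 0.0413 and Lss one of 0.0686. Leaving out dupKi-het library 2, 3 or 5, or Ki-het library 1 or 2, ended the call of Lss (limma adjusted p 0.0506 to 0.0865), and the same libraries or Ki-het library 4 ended that of Idi1 (0.0574 to 0.205). A fit of the 2 genotypes alone ended both calls (limma adjusted p of 0.0607 for Lss and 0.159 for Idi1), and that of Idi1 also ended with median scaling (0.156), TMM scaling (0.130) and no filter on low values (0.0720).

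Hmgcs1 could be read in the first set only. It measured 128.5, 135.0 and 156.8 FPKM in dupKi-hom libraries and 157.1, 154.9 and 161.3 FPKM in ATXN3-KO libraries, against 159.0, 164.9 and 178.7 FPKM in wild-type libraries. All 3 dupKi-hom libraries lay below every wild-type library, but the difference did not pass (-0.26, SE 0.076, limma adjusted p = 0.155), and in ATXN3-KO it was -0.08 (SE 0.076, limma adjusted p = 0.883). After median or TMM scaling, which removes differences in each library's overall level, Hmgcs1 and Cyp51 passed as lower in dupKi-hom. Cyp51 passed in 3 of 8 alternative fits and in 0 of 6 fits that left out 1 library (limma adjusted p 0.0702 to 0.334). The remaining enzymes of these steps are Acat2, the thiolase that makes acetoacetyl-CoA, the kinases Mvk and Pmvk, Fdps, and the squalene synthase Fdft1. Of these 5, Fdft1 had an unadjusted p under 0.05 in Ki-hom, dupKi-het and YAC84Q-hemi, with log2 fold changes against wild-type of -0.11, -0.09 and -0.10. In Ki-hom it measured 35.9, 36.6, 35.1 and 34.7 FPKM, below all wild-type libraries (37.2 to 40.5 FPKM), with a limma adjusted p of 0.274.

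Among the enzymes after lanosterol, none passed the adjusted threshold in any of the 11 comparisons. Nearest to it were 2 of them in dupKi-het against Ki-het. Hsd17b7, a ketosteroid reductase, measured 13.2 ± 1.49 FPKM in dupKi-het and 10.4 ± 1.21 FPKM in Ki-het (SD, n = 6 and 4; 0.31, SE 0.105, limma adjusted p = 0.0598). Sc5d, the lathosterol desaturase, measured 50.8 ± 4.14 FPKM in dupKi-het and 44.1 ± 3.15 FPKM in Ki-het (0.20, SE 0.071, limma adjusted p = 0.0717). Both passed as higher without the libraries numbered 1, with these as a covariate and with Ttr as a covariate. Cyp51, the lanosterol demethylase, measured 33.9, 34.1 and 39.9 FPKM in dupKi-hom libraries, 44.7, 43.4 and 44.7 FPKM in ATXN3-KO libraries and 40.5, 45.4 and 50.1 FPKM in wild-type libraries. The dupKi-hom libraries lay below all the others, with a log2 fold change of -0.33 against wild-type (SE 0.086, limma adjusted p = 0.117) and of -0.30 against ATXN3-KO (SE 0.086, limma adjusted p = 0.159). In dupKi-het libraries Cyp51 measured 32.2, 37.1, 35.7, 33.7, 37.2 and 33.1 FPKM, 4 of 6 below every wild-type library of that set (36.0 to 42.0 FPKM, median 37.8; -0.14, SE 0.048, limma adjusted p = 0.152). In Ki-het libraries it measured 35.0, 34.8, 34.9 and 32.0 FPKM, all below the wild-type libraries (-0.17, SE 0.053, limma adjusted p = 0.249). None of these differences passed.

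Ebp, the sterol isomerase, had the smallest p of all members in ATXN3-KO, at 12.4, 12.6 and 16.4 FPKM, against 17.1, 14.3 and 18.7 FPKM in wild-type libraries (-0.26, SE 0.118, limma adjusted p = 0.771). It also had the second smallest p between Ki-hom (11.4, 10.6, 10.6 and 10.4 FPKM) and Ki-het (12.6, 12.9, 11.9 and 11.6 FPKM), where the libraries did not overlap (-0.18, SE 0.103, limma adjusted p = 1). Nsdhl, a dehydrogenase that removes methyl carbons, measured 18.9, 17.7 and 20.6 FPKM in ATXN3-KO, against 20.3, 21.0 and 21.0 FPKM in wild-type (-0.12, SE 0.068, limma adjusted p = 0.823). Neither gene separated ATXN3-KO from wild-type without overlap. Msmo1, which oxidises those methyl carbons, measured 85.5, 82.1 and 94.4 FPKM in dupKi-hom, against 97.7, 104.5 and 106.8 FPKM in wild-type (-0.24, SE 0.072, limma adjusted p = 0.173). In YAC84Q-hemi it measured 61.3, 63.6, 54.1 and 61.9 FPKM, below both YAC15Q-hemi (64.1 to 77.7 FPKM) and wild-type (65.3 to 72.0 FPKM). Dhcr7, a reductase of the last step of one branch, averaged 19.0 ± 1.72 FPKM in Ki-hom and 18.4 ± 1.47 FPKM in Ki-het, against 22.8 ± 3.20 FPKM in wild-type (limma adjusted p = 0.2 and 0.194). Of the desaturase Sc5d and the reductases Tm7sf2 and Hsd17b7, Sc5d had an unadjusted p under 0.05 against wild-type in Ki-hom and Ki-het (-0.18 and -0.21), Hsd17b7 in Ki-het (-0.23), and Tm7sf2 in no genotype.

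Of the 5 genes of sterol sensing and SREBP control, Insig1, itself a target that SREBPs switch on, passed in Ki-hom. It measured 70.4, 70.9, 63.4 and 63.5 FPKM in Ki-hom libraries, against 98.0, 71.6, 92.7, 93.9, 73.9 and 89.4 FPKM in wild-type libraries. Insig1 fell to 67.0 ± 4.15 FPKM in Ki-hom, against 86.6 ± 11.1 FPKM in wild-type (-0.36, SE 0.074, limma adjusted p = 0.0255), and the groups did not overlap. The lowest wild-type libraries, 2 and 5, stood close above the highest Ki-hom library. Without the libraries numbered 1 its limma adjusted p was 0.0759, and with them as a covariate 0.00407. Median scaling gave 0.104 and TMM scaling 0.0908, and leaving out Ki-hom library 1, 3 or 4 or wild-type library 1, 3, 4 or 6 gave limma adjusted p-values of 0.0540 to 0.117. In Ki-het libraries Insig1 measured 70.4, 72.7, 73.2 and 66.7 FPKM (-0.28, SE 0.074, limma adjusted p = 0.136), and the Ki-hom to Ki-het difference was -0.08 (95% interval -0.24 to 0.09). The levels in YAC84Q-hemi (79.5, 79.8, 74.9 and 78.9 FPKM) lay below all 4 in YAC15Q-hemi (103.4, 94.1, 92.8 and 85.2 FPKM), without passing (-0.26, SE 0.081, limma adjusted p = 0.293).

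Scap, the escort of the SREBPs, was higher in dupKi-het, at 29.9, 34.6, 24.1, 27.5, 30.1 and 23.5 FPKM, than in Ki-het, at 18.0, 20.8, 21.0 and 26.6 FPKM. The log2 fold change was 0.38 (SE 0.103, limma adjusted p = 0.0210), with 4 of 6 dupKi-het libraries above all Ki-het libraries. Its limma adjusted p was 0.126 without the libraries numbered 1, and 0.0564, 0.0998 and 0.0595 without dupKi-het library 2, Ki-het library 1 and Ki-het library 2. It was 0.102 in a fit of the 2 genotypes alone and 0.0576 without the libraries above 1000 FPKM of Ttr. Wild-type libraries ranged from 20.1 to 29.1 FPKM and overlapped both. In YAC15Q-hemi libraries Scap measured 21.6, 20.0, 23.4 and 23.2 FPKM (-0.23 against wild-type, SE 0.103, limma adjusted p = 1). Srebf1, the SREBP tied more to fatty acid synthesis, measured 30.4, 29.6 and 27.9 FPKM in dupKi-hom libraries, 23.7, 25.5 and 23.2 FPKM in ATXN3-KO libraries and 24.7, 23.2 and 25.7 FPKM in wild-type libraries. The 3 dupKi-hom libraries lay above all the others (0.25 against wild-type, SE 0.067, limma adjusted p = 0.128, and 0.27 against ATXN3-KO, SE 0.067, limma adjusted p = 0.0980). In dupKi-het libraries Srebf1 stood at 27.3 to 32.5 FPKM (median 31.0), against 28.4 to 33.2 FPKM in wild-type libraries (median 31.5), and the groups overlapped. Srebf2, which drives cholesterol synthesis, averaged 35.5 ± 1.75 FPKM in Ki-hom, against 39.0 ± 1.61 FPKM in wild-type (-0.13, SE 0.053, limma adjusted p = 0.279). Insig2, the second anchor, had no unadjusted p under 0.05 in any comparison.

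Among the genes of uptake and movement inside the cell, 1 passed, and only in dupKi-het against Ki-het, where 7.84% of all genes passed as higher. This was Stard4, a soluble carrier that moves sterol between membranes. In dupKi-het libraries it measured 17.5, 17.5, 16.9, 16.4, 17.2 and 16.2 FPKM, above all 4 Ki-het libraries (14.7, 14.0, 13.9 and 12.5 FPKM). It was higher in dupKi-het than in Ki-het by 0.28 on the log2 scale (SE 0.076, limma adjusted p = 0.0175). Without the libraries numbered 1 the limma adjusted p was 0.0157, and without Ki-het library 4 it was 0.0651. It was 0.0953 with median scaling, 0.0782 with TMM scaling and 0.0582 without the libraries above 1000 FPKM of Ttr, none of which passed. In Ki-hom it measured 14.6, 14.3, 13.5 and 12.8 FPKM, against 13.9 to 19.5 FPKM in wild-type (median 17.0; -0.24, SE 0.076, limma adjusted p = 0.163). Npc1, which moves cholesterol out of lysosomes, measured 37.6, 30.7, 30.8 and 31.9 FPKM in YAC84Q-hemi libraries, all above the wild-type libraries (26.8 to 29.7 FPKM, median 27.6), with a log2 fold change of 0.21 (SE 0.060, limma adjusted p = 0.159). The highest of these libraries was number 1, and without the libraries of that number the log2 fold change was 0.16 (limma adjusted p = 0.0979). With these libraries as a covariate it was 0.20, which passed (limma adjusted p = 0.0183). In ATXN3-KO libraries Npc1 measured 22.8, 25.0 and 24.6 FPKM, against 27.1, 24.3 and 27.4 FPKM in wild-type libraries (-0.12, SE 0.070, limma adjusted p = 0.846), and between Ki-hom and Ki-het it was 0.10 (SE 0.065, limma adjusted p = 1). Npc2, its soluble partner, had no unadjusted p under 0.05 in any comparison. Mylip, a ubiquitin ligase that sends lipoprotein receptors for degradation, measured 3.47, 3.49, 3.49, 3.73, 4.01 and 4.10 FPKM in dupKi-het libraries, against 4.02 to 4.59 FPKM in wild-type libraries (median 4.27; -0.17, SE 0.053, limma adjusted p = 0.117). It stood at 3.44 to 3.98 FPKM in YAC84Q-hemi (-0.16, SE 0.059, limma adjusted p = 0.425) and at 3.60 to 4.07 FPKM in YAC15Q-hemi (-0.12, SE 0.059, limma adjusted p = 1).

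Apoe, of the export genes, differed most from wild-type in the duplicated-repeat genotypes. In dupKi-hom libraries it measured 1153, 1033 and 1146 FPKM, against 1491, 1188 and 1452 FPKM in ATXN3-KO libraries and 1388, 1315 and 1420.4 FPKM in wild-type libraries. The dupKi-hom libraries lay below all the others, without passing (-0.31 against wild-type, SE 0.087, limma adjusted p = 0.141, and -0.30 against ATXN3-KO, SE 0.087, limma adjusted p = 0.149). Against wild-type Apoe passed in 4 of 8 alternative fits: the 2 genotypes alone (limma adjusted p = 0.0227), the replicate number as a block (0.0292), without the libraries above 1000 FPKM of Ttr (0.0231) and with Ttr as a covariate (0.0396). In the first set only ATXN3-KO libraries 1 and 3 exceeded that limit, at 1442 and 2909 FPKM of Ttr. Leaving them out removed no dupKi-hom or wild-type library, so the log2 fold change stayed at -0.31. The alternatives that did not pass reached a limma adjusted p of 0.362. Of 6 fits that each left out 1 dupKi-hom or wild-type library, 0 passed for Apoe (limma adjusted p 0.232 to 0.396). In dupKi-het libraries Apoe measured 1351 FPKM in library 1 and 1809 to 2218 FPKM in the other 5, against 1780.5 FPKM in wild-type library 1 and 2656 to 2966 FPKM in the other 5. Over all libraries the log2 fold change was -0.47 (SE 0.165, limma adjusted p = 0.168). Without the libraries numbered 1 it was -0.48 and the limma adjusted p 2.2e-06, and with these libraries as a covariate the limma adjusted p was 6.95e-08. The 5 dupKi-het libraries outside number 1 lay below the 5 wild-type libraries outside number 1, but above wild-type library 1. Astrocytes make most Apoe, and the summed FPKM of 8 astrocyte markers was 452 to 532 in dupKi-hom libraries, against 699 to 796 in wild-type libraries, and 544 to 622 in dupKi-het libraries, against 789.7 to 875 in wild-type libraries of that set. Of the 8 markers, 5 passed as lower in each of the 2 genotypes, beside 1.15% of all genes in dupKi-hom and 1.37% in dupKi-het. None of the 8 was at 0, and their part in the Apoe values was not tested. In bulk tissue, fewer cells of a type and less RNA per cell cannot be told apart.

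**Figure D4:**
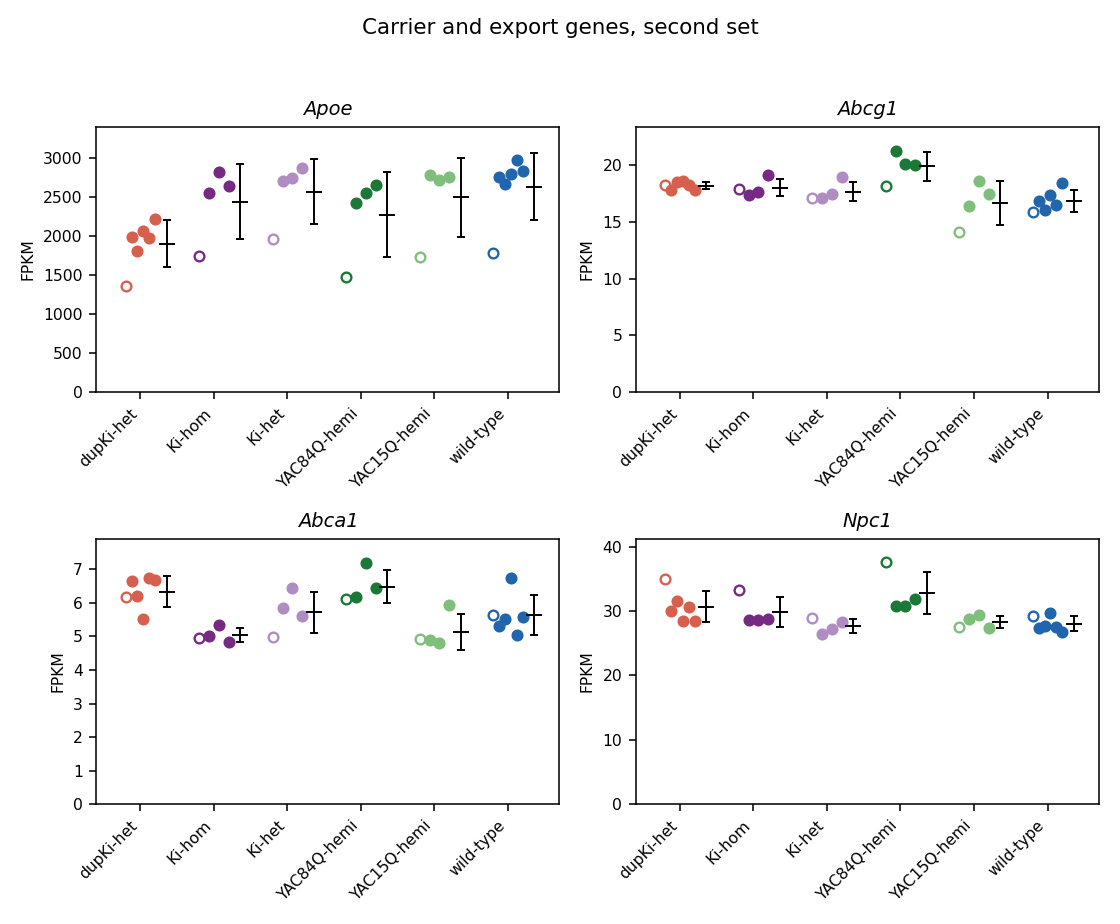
FPKM of Apoe, Abcg1, Abca1 and Npc1 in each library of the second set, by genotype, with the mean and SD beside the points; open circles are the libraries numbered 1. Apoe in library 1 is the lowest of its genotype in 6 of 6 genotypes, and the other 5 dupKi-het libraries (1809 to 2218 FPKM) lie below the other 5 wild-type libraries (2656 to 2966 FPKM).

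The exporters Abcg1 and Abca1, which load cholesterol onto apolipoproteins and are switched on by the sterol receptor that Nr1h2 encodes, were tested in every genotype, and Abcg1 had the smallest p of all members in YAC84Q-hemi pons against both wild-type and YAC15Q-hemi. Abcg1 measured 18.2, 21.3, 20.1 and 20.0 FPKM in YAC84Q-hemi libraries, 14.1, 16.4, 18.6 and 17.5 FPKM in YAC15Q-hemi libraries and 15.9, 16.8, 16.1, 17.4, 16.5 and 18.5 FPKM in wild-type libraries. Its log2 fold change was 0.23 against wild-type (SE 0.057, limma adjusted p = 0.0848) and 0.25 against YAC15Q-hemi (SE 0.062, limma adjusted p = 0.105), with 3 of 4 libraries above all of either group. Against wild-type it passed in 5 of 10 alternative fits: after median scaling (0.0283), TMM scaling (0.0206), with the replicate block (0.0255), without the libraries numbered 1 (0.0255) and with them as a covariate (0.0110; limma adjusted p in each case). The others reached a limma adjusted p of 0.305, and of 10 fits that left out 1 library 1 passed (0.0499 to 0.337). Against YAC15Q-hemi the limma adjusted p of Abcg1 was 0.0303 after median scaling and 0.144 without the libraries numbered 1. There it passed in 4 of 10 alternative fits, the highest limma adjusted p being 0.778, and in 1 of 8 fits that left out 1 library. Abca1 measured 6.13, 6.18, 7.19 and 6.46 FPKM in YAC84Q-hemi libraries, above all 4 YAC15Q-hemi libraries (4.93, 4.88, 4.80 and 5.94 FPKM; 0.29, SE 0.076, limma adjusted p = 0.141) and overlapping wild-type (5.04 to 6.74 FPKM). In Ki-hom it measured 4.97, 5.02, 5.34 and 4.83 FPKM, against 4.97, 5.84, 6.43 and 5.61 FPKM in Ki-het (-0.15, SE 0.076, limma adjusted p = 1). Abcg1 in dupKi-hom measured 17.0, 17.7 and 18.7 FPKM, above ATXN3-KO (14.2, 15.5 and 15.8 FPKM) and wild-type (15.2, 15.2 and 15.6 FPKM), without passing (0.20 against wild-type, SE 0.069, limma adjusted p = 0.235). Cyp46a1, the neuronal hydroxylase that turns cholesterol into a form that leaves the brain, had an unadjusted p under 0.05 only between dupKi-het and Ki-het (-0.17, SE 0.073, limma adjusted p = 0.151). Nr1h2 and Soat1, which stores cholesterol as esters, had none in any comparison.

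**Figure D5:**
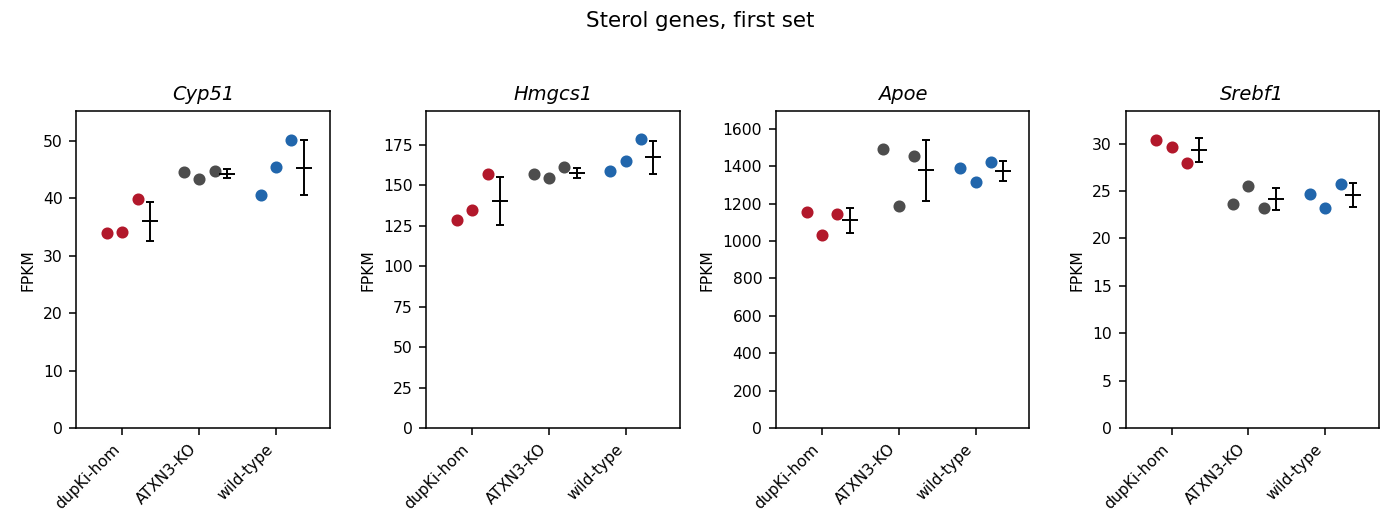
FPKM of Cyp51, Hmgcs1, Apoe and Srebf1 in each library of the first set, by genotype, with the mean and SD beside the points. The 3 dupKi-hom libraries lie below all wild-type libraries for Cyp51, Hmgcs1 and Apoe and above them for Srebf1.

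Cell type markers, among them those of the cells that make most brain cholesterol, differed between genotypes as well. The summed FPKM of 12 mature oligodendrocyte markers was 3367 to 3702 in Ki-hom libraries, 3468 to 3818 in Ki-het, 3076 to 3415 in dupKi-het, 3216 to 3667 in YAC84Q-hemi and 3758 to 4137 in YAC15Q-hemi libraries, against 4002 to 4534 in wild-type libraries. Of the 11 markers tested in the second set, 1 passed as lower in Ki-hom (0.459% of all genes) and 0 in Ki-het (0.101%). In dupKi-het 4 passed as lower (1.37% of all genes), in YAC84Q-hemi 2 (0.162%) and in YAC15Q-hemi 0 (0.00676%). In the first set the sum was 3339 to 3683 in dupKi-hom libraries and 4622 to 4996 in ATXN3-KO libraries, against 5272 to 6233 in wild-type libraries. Sums of other cell types were lower in dupKi-hom too. Neuronal markers summed to 3135 to 3270 (wild-type 3553 to 3747), precursor markers to 22.8 to 24.4 (27.9 to 31.5) and endothelial and mural markers to 102 to 111 (137 to 147). Microglial, choroid plexus and meningeal sums overlapped wild-type. The neuronal sum was 3293 to 3425 in ATXN3-KO libraries. No marker of the list was at 0 in all libraries of a genotype. In the second set the mean of the sum was lowest in dupKi-het, whose libraries overlapped those of Ki-hom and YAC84Q-hemi. Astrocyte marker sums were 733 to 794 in Ki-hom and 752 to 824 in Ki-het libraries, against 789.7 to 875 in wild-type libraries. The sum of 8 endothelial and mural markers was 73.4 to 81.2 in Ki-hom, 72.2 to 87.0 in Ki-het and 108 to 131 in dupKi-het libraries, against 77.3 to 126 in wild-type libraries. Of the 8, 7 passed as higher in dupKi-het than in Ki-het, beside 7.84% of all genes. The sum of 9 choroid plexus markers was 39.8 to 1952 in Ki-hom libraries (median 54.7), against 33.4 to 675 in wild-type libraries (median 122). No neuronal, oligodendrocyte, astrocyte, microglial, endothelial or meningeal marker listed was at 0 throughout a genotype, and 1 choroid plexus marker was in Ki-hom and in Ki-het. The part of these marker levels in the sterol gene results was not tested.

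Beyond the 33 members, 70 genes of neighbouring lipid routes were taken in 6 lists, of which the filter left 67 in the first set and 68 in the other. The fatty acid desaturases, which SREBPs also drive, gave most of the calls against wild-type. In dupKi-het pons 6 of the 68 passed as lower than wild-type and 0 as higher, beside 1.37% and 1.16% of all genes. Fads1 fell to 59.1 ± 1.73 FPKM in dupKi-het, against 79.7 ± 2.83 FPKM in wild-type (-0.43, limma adjusted p = 7.11e-09), Fads2 by 0.35 (5.35e-06), Scd2 by 0.29 (0.000201) and Scd1 by 0.18 (0.0305; each a log2 change with its limma adjusted p). Lcat, which esterifies cholesterol on lipoproteins, fell to 13.0 ± 1.13 FPKM in dupKi-het, against 19.4 ± 2.18 FPKM in wild-type (limma adjusted p = 6.82e-06), and Cyp11a1, which cleaves the side chain of cholesterol, fell by 0.44 (limma adjusted p = 0.00791). In dupKi-hom pons 1.15% of all genes passed as lower and 0.484% as higher. Fads1 fell there to 56.5 ± 3.81 FPKM, against 81.8 ± 2.73 FPKM in wild-type (limma adjusted p = 0.0017). Scd2 fell to 537 ± 33.6 FPKM in dupKi-hom, against 706 ± 12.4 FPKM in wild-type (limma adjusted p = 0.00661). The sterol transfer protein Osbpl5 rose to 20.2 ± 0.742 FPKM in dupKi-hom, against 13.5 ± 1.83 FPKM in wild-type (limma adjusted p = 0.01003). In Ki-hom pons 1 of the 68 passed, Scd2, which was lower, beside 0.459% of all genes lower and 0.142% higher. It stood at 573 ± 23.5 FPKM, against 670.4 ± 28.0 FPKM in wild-type (-0.23, limma adjusted p = 0.0445). None passed in ATXN3-KO (0.0142% of all genes lower and 0% higher), Ki-het (0.101% and 0.0135%), YAC84Q-hemi (0.162% and 0.365%) or YAC15Q-hemi (0.00676% and 0%). Between dupKi-het and Ki-het, 6 passed as higher (7.84% of all genes did), led by the phospholipid transfer protein Pltp (0.48, limma adjusted p = 0.00603), and 4 as lower (2.81% of all genes), among them Fads1 (-0.37) and Lcat (-0.48). Against ATXN3-KO, Fads1 was lower in dupKi-hom (-0.46, limma adjusted p = 0.00465) and the lipid transporter Abca2 higher (0.32, limma adjusted p = 0.0181). Against wild-type, the SREBP cleavage genes, the oxysterol enzymes other than Cyp11a1 and the further enzymes of the route gave no call.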

How the data were processed

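FPKM values per gene and library were used as the authors deposited them, in 1 table with 37 usable libraries, 9 of the first and 28 of the second set. Per the submitters' processing notes, the tools included TopHat2, Cuffdiff, DESeq, Trimmomatic, FastQC and CASAVA 1.8.2 with the build mm8; their roles are not given in the sources used here. Lines whose symbol had turned into a date (27) were dropped and lines of a repeated symbol summed, which left 41227 genes. Column names give the genotype, and 3 wild-type columns of each set, 6 in all, match 2 samples each by name, so each of these served as a wild-type library tied to no single sample. Of 59 samples in the labels, 22 had no column used here. Genes reaching 1 FPKM in 3 libraries or more of a set, except those listed at 0 throughout a genotype (7 and 12), were fitted as log2(FPKM + 1) with limma 3.58.1 in R 4.3.3 with a mean-variance trend and Benjamini-Hochberg adjustment over all genes, all genotypes of a set together. The model was tested on simulated data. The members and lists were chosen with earlier results of these data known. Values in every library are given for members past an adjusted p of 0.05 and, in a comparison with fewer than 3 of these, for the 3 smallest p-values. Alternatives were another pseudocount, no filter on low values, median and TMM scaling of libraries, fits of 2 genotypes alone, the replicate number as a block, Ttr as a covariate or a limit, and leaving out each library. The fits that treat the libraries numbered 1 separately were added after the data were seen. P-values measure the spread between mice of a set, and depth per library is unknown, so no counting interval is given.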

Additional observations from a re-analysis of the deposited data

Results flagged for a closer look

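In 16 of 192 groups of 4 to 6 libraries, the highest or lowest library stood apart from the rest of its genotype by Dixon's criterion, which chance alone meets in about 1 in 20 groups, and 9 of the 16 were libraries numbered 1. Among the lowest were Pmvk at 22.8 FPKM in a wild-type library (median 34.5) and 21.1 in a dupKi-het library (31.6), and Apoe at 1780.5 in a wild-type library (2769) and 1734 in a YAC15Q-hemi library (2731). Fdps stood at 43.6 FPKM in a Ki-hom library (median 53.3), Mvk at 14.4 in a YAC84Q-hemi library (23.2) and Acat2 at 23.4 in a YAC84Q-hemi library (28.0). Npc1 was highest at 33.3 FPKM in a Ki-hom library (median 28.7) and 37.6 in a YAC84Q-hemi library (31.3). These 9 values all belong to libraries numbered 1.

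The other 7 values came from other libraries. The lowest were Srebf2 at 37.6 FPKM in a dupKi-het library (median 40.6), Cyp51 at 32.0 in a Ki-het library (34.8), Tm7sf2 at 9.19 in a Ki-hom library (11.6), and, in a YAC84Q-hemi library, Nsdhl at 16.4 (18.4) and Insig1 at 74.9 (79.2). Abca1 was highest at 6.74 FPKM in a wild-type library (median 5.55) and 5.94 in a YAC15Q-hemi library (4.90).

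The difference between the heterozygous duplicated and single repeats passed the test for 4 of 32 members, all higher in dupKi-het. Over all genes 7.84% passed as higher and 2.81% as lower. The log2 fold change of dupKi-het over Ki-het was 0.47 for Lss, 0.38 for Scap, 0.28 for Stard4 and 0.23 for Idi1. Median scaling gave 2 members higher and 2 lower, and a fit of the 2 genotypes alone gave 1 higher, Stard4.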

How the results depend on the processing

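No called result changed direction under the alternatives run. The members' median log2 fold change changed sign in 3 comparisons: without the libraries above 1000 FPKM of Ttr it was 0.03 in dupKi-hom against ATXN3-KO (-0.04 over all libraries) and 0.000588 in Ki-hom against Ki-het (-0.04), and without YAC15Q-hemi library 3 it was -0.01 in YAC15Q-hemi against wild-type (0.01). Of 400 alternative counts of members called, 346 stayed within 1.5 times the count reported and 54 moved; of 620 alternatives for single genes, 534 kept their side of the threshold, 33 gained a call and 53 lost one. Against the 3 members lower in Ki-hom, a fit of the 2 genotypes alone gave 0, a fit without the libraries above 1000 FPKM of Ttr 0, and the covariate for the libraries numbered 1 gave 7. Against 0 members lower in dupKi-hom, median scaling and TMM scaling each gave 2, the fit of 2 genotypes 1, the fit without libraries above 1000 FPKM of Ttr 1, and Ttr as a covariate 1, which in these last 3 fits was Apoe. In the first set the Ttr limit took out ATXN3-KO libraries 1 and 3 and no dupKi-hom or wild-type library. In dupKi-het 1 member, Apoe, was lower with the number-1 covariate and 1 without the libraries numbered 1. In Ki-het 3 were lower with that covariate. For members higher in YAC84Q-hemi, median scaling gave 1, TMM scaling 1, the number-1 covariate 2 and leaving out the libraries numbered 1 gave 1, and against YAC15Q-hemi the first 3 of these settings gave 1, 1 and 2. Against the 4 members higher in dupKi-het than Ki-het, median scaling gave 2, TMM scaling 2, the fit of 2 genotypes 1, the fit without libraries above 1000 FPKM of Ttr 2 and the number-1 covariate 10; the members lower there numbered 2, 1, 3 and 2 under median scaling, TMM scaling, the number-1 covariate and without the libraries numbered 1. The cause was not tested. Leaving out 1 library at a time gave 0 to 6 members lower in Ki-hom, 0 to 4 in Ki-het, 0 to 1 in dupKi-hom against wild-type and 0 to 1 against ATXN3-KO, and 1 to 6 higher in dupKi-het than Ki-het. The same gave 0 to 1 higher in YAC84Q-hemi against wild-type and 0 to 1 against YAC15Q-hemi. Over all genes, these fits gave 19 to 239 calls in Ki-hom, 5 to 138 in Ki-het and 112 to 160 in dupKi-hom against wild-type. They gave 63 to 182 in dupKi-hom against ATXN3-KO and 885 to 2013 in dupKi-het against Ki-het. YAC84Q-hemi had 31 to 60 against wild-type and 23 to 44 against YAC15Q-hemi. In Ki-hom the count of members was 0 without Ki-hom library 1 and 6 without wild-type library 2, and in Ki-het 4 without wild-type library 2 and 2 without wild-type library 5. Over all genes, 89 passed in Ki-hom, 383 with the number-1 covariate and 41 without these libraries, and in Ki-het 17, 130 and 7. In dupKi-hom 230 passed, against 296 with median and 278 with TMM scaling. The fit of 2 genotypes gave 250 there, the Ttr limit 249 and Ttr as a covariate 265. In dupKi-het 375 passed, 813 with the number-1 covariate and 501 without these libraries. In YAC84Q-hemi 78 passed, against 66 with median or TMM scaling, 207 with that covariate and 47 without these libraries.

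The libraries of different genotypes share only a number. Residuals of libraries numbered 1 in the second set correlated at 0.161 to 0.378 over 15 pairs, but those numbered 2 went down to -0.083 and those numbered 3 to -0.250, so the numbers were not taken as pairs. Those numbered 4 correlated at 0.0059 to 0.315. The medians were 0.287, 0.029, -0.0086 and 0.093 for numbers 1 to 4, against -0.030 for libraries of unlike number. With the replicate block, 3 members were lower in dupKi-hom against wild-type, 1 against ATXN3-KO, 1 in dupKi-het, 8 in Ki-hom and 6 in Ki-het. The block also gave 1 member higher in YAC84Q-hemi against wild-type and 1 against YAC15Q-hemi, and 10 higher and 4 lower in dupKi-het against Ki-het. Over all genes the block gave 711 calls in Ki-hom, 358 in Ki-het, 332 in dupKi-hom, 900 in dupKi-het and 182 in YAC84Q-hemi, each against wild-type. Between dupKi-het and Ki-het 1577 genes passed, against 3712 with the number-1 covariate and 4240 with the block. Median scaling gave 1644 there, TMM scaling 1651 and the fit of 2 genotypes 691. Between YAC84Q-hemi and YAC15Q-hemi 39 passed, against 48 with median scaling, 51 with TMM scaling, 139 with the number-1 covariate and 138 with the block.

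With 3 to 6 libraries a genotype and read totals unknown, a call near the threshold turns on single libraries, and a difference that did not pass is not shown to be absent. Hmgcs1 could not be read in the second set. Sequences of 6 members were not used here.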
